A study of Mus musculus with 2 samples.

Results

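Levels were compared for 34 genes that respond to acute stimulation or stress, 22 immediate early genes and 12 heat shock genes, among the 31053 genes counted in pancreatic islet cells of *Npc1*-/- and wild-type (WT) mice. The immediate early members were *Fos*, *Fosb*, *Jun*, *Junb*, *Jund*, *Egr1*, *Ier2*, *Ier3*, *Dusp1*, *Atf3*, *Btg1*, *Btg2*, *Zfp36*, *Nr4a1*, *Klf2*, *Klf4*, *Klf6*, *Socs3*, *Gem*, *Rasd1*, *Ppp1r15a* and *Myc*. The heat shock members were *Hspa1a*, *Hspa1b*, *Hspa8*, *Hspb1*, *Hspd1*, *Hspe1*, *Hsp90aa1*, *Hsp90ab1*, *Hsph1*, *Dnajb1*, *Dnaja1* and *Bag3*. Both lists were set by gene name with earlier results of these data known, and the question was whether both lists moved together between the genotypes in each kind of islet cell.

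Islets came from 2-week-old female mice on a C57BL/6J background, either *Npc1*-/-, which lack the lysosomal cholesterol exporter NPC1 in every cell, or WT littermates from the same heterozygous matings. Each genotype was 1 droplet single-cell RNA library made from the islets of 3 pooled mice, which had been dispersed with trypsin-EDTA. There were thus no replicates, no test between genotypes was possible, and each interval given here covers counting error only and not the spread between mice, pools or dissociations. Intervals of levels and ratios also take UMIs as independent and so leave out the spread between cells. Genotype, library and dissociation run cannot be told apart.

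Immediate early genes are transcribed within minutes of a growth factor, calcium or stress signal, with no need for new protein synthesis. Most encode transcription factors or feedback regulators, and their mRNAs are short-lived. Heat shock genes encode chaperones that keep proteins folded, and the inducible ones are switched on by the heat shock factor HSF1 when unfolded protein builds up. In islets, glucose and membrane depolarisation are known to induce *Fos*, *Egr1* and *Nr4a1* through calcium and cAMP signalling, and enzymatic dispersal of solid tissue is known to induce both gene families in the cells that are released.

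Of 8569 barcodes in the WT library and 7646 in the *Npc1*-/- library, 4628 and 4269 had more than 1000 genes, fewer than 50000 unique molecular identifiers (UMIs), less than 10% mitochondrial UMIs and at most 0.1% haemoglobin UMIs. They held a median of 18905 and 21381 UMIs. The libraries shared 12 barcode sequences, of which 3 passed in both. Cells whose leading hormone took 10% or more of their UMIs formed 4 classes, with 1833 WT and 1826 *Npc1*-/- cells led by insulin, 1048 and 857 by glucagon, 189 and 141 by somatostatin, and 411 and 442 by *Ppy* and *Pyy*. Marker genes gave 434 and 439 endothelial-like, 234 and 253 stellate-like, 61 and 68 mesenchymal-like and 50 and 33 macrophage-like cells. All 7 β cell markers were highest in the insulin-led class. Only 2 of 6 PP cell markers peaked in the *Ppy*/*Pyy*-led class, so the hormone-led classes are called here by their hormone. All 8 markers of each class without a hormone were highest in their own, which is no check, since the same markers set those classes. The somatostatin-led class was small and lay close to its minimum, since 76.7% of its WT cells and 73.8% of its *Npc1*-/- cells held that hormone at 10% to 20% of their UMIs. *Npc1* itself had 790 UMIs in the kept WT cells and 391 in the kept *Npc1*-/- cells, or 8.40 and 4.14 CPM (counts per 1000000 UMIs). The part of the gene that the allele removes was not given in the sources used here, and 3′ tags from outside it would not check the label.

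A level is given as CPM, the UMIs of a gene per 1000000 UMIs that a class held in a library. Insulin alone took 51.9% of the UMIs of WT insulin-led cells and 49.3% of *Npc1*-/- ones, so levels are compared between classes only as CPM without the hormone genes. Between genotypes, a ratio is the log2 of *Npc1*-/- over WT, relative to the median gene of the class, so that 0 means the same change as the median gene, and a gene is called lower or higher past 2-fold. The median gene itself lay 0.12 (log2) higher in *Npc1*-/- insulin-led cells and 0.06 or closer to 0 in the other classes. A ratio was read only where a gene reached 5 CPM in one library or the other and 20 UMIs over both, a minimum that 17 immediate early and all 12 heat shock members reached in insulin-led cells.

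In insulin-led cells, 9 of the 17 immediate early members were more than 2-fold lower in the *Npc1*-/- library and none was higher, where 0.497% of the 8858 genes read in this class were lower and 0.169% were higher. They were *Fos*, *Fosb*, *Jun*, *Junb*, *Egr1*, *Ier2*, *Dusp1*, *Btg2* and *Zfp36*. Both lists were set with earlier results of these data known, so an excess over all genes describes the listed members only. The median ratio of the 17 was -1.04, against a middle range of -0.14 to 0.15 over all genes (the lower and upper quartiles). The 5 members below the minimum, *Ier3*, *Atf3*, *Klf4*, *Socs3* and *Myc*, also had lower CPM in *Npc1*-/-. Of the 12 heat shock members, 4 were more than 2-fold lower, *Hspa1a*, *Hspa1b*, *Hspb1* and *Dnajb1*, and the median of the 12 was -0.53. The interval of the ratio lay wholly below the median gene for 16 of 17 immediate early and 11 of 12 heat shock members, against 29.2% of all genes in this deeply counted class. Summed UMIs of the immediate early list were 1377 CPM (95% Poisson interval 1367 to 1387) in WT and 717 CPM (710 to 725) in *Npc1*-/-, while those of the heat shock list were 2366 CPM (2353 to 2379) and 1787 CPM (1775 to 1798). The first list was thus 1.92-fold and the second 1.32-fold lower. Median mitochondrial share, a sign of RNA quality, was 4.31% in WT and 4.55% in *Npc1*-/- insulin-led cells, and the nuclear RNA *Malat1* stood at 6193 and 6685 CPM. The 6 acinar markers summed to 75.8 and 20.5 CPM in these cells, with none at 0. The part of these measures in the result was not tested.

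**Figure D1:**
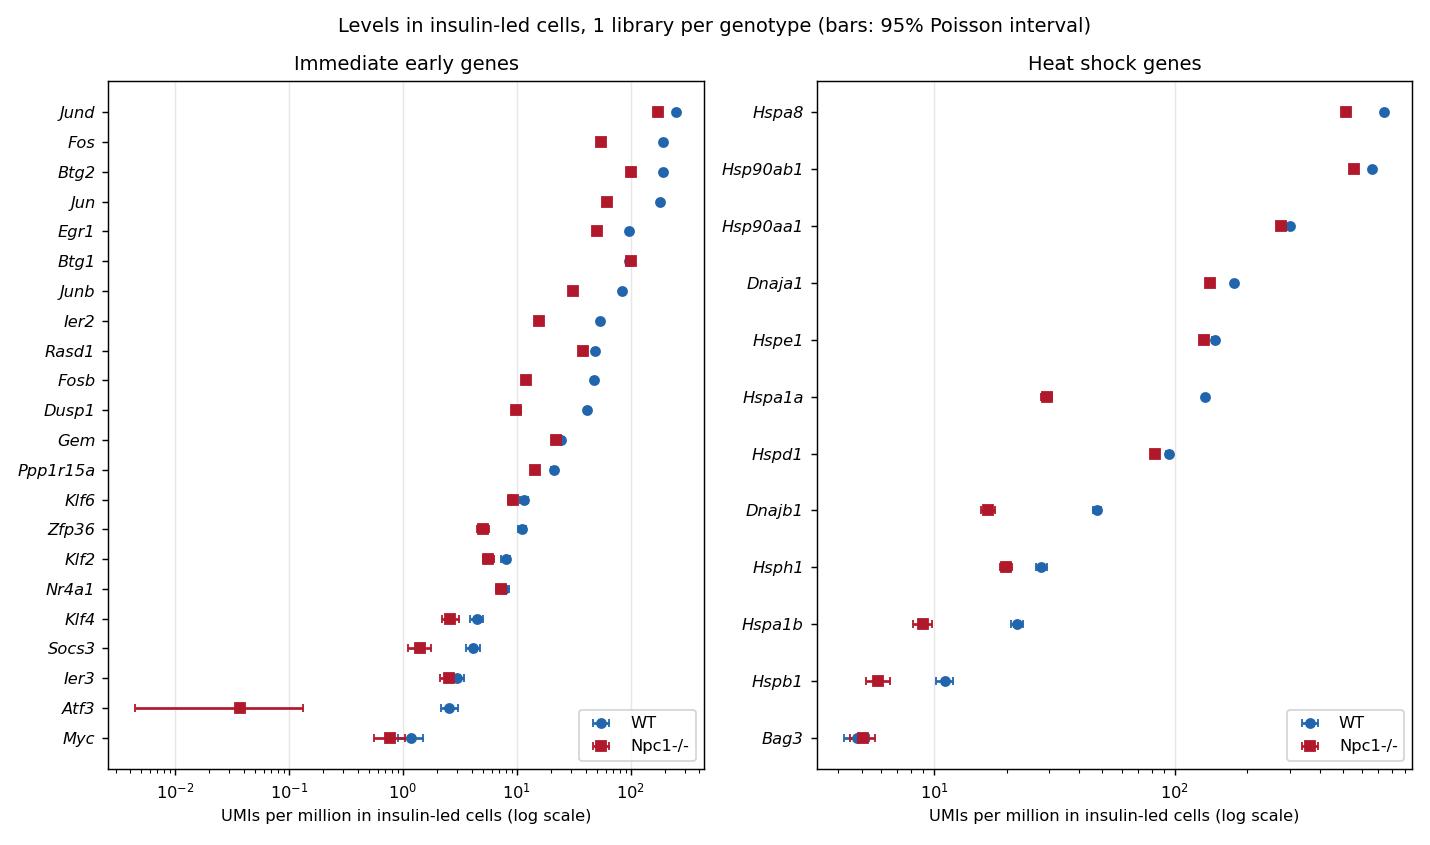
Level of each member in insulin-led cells of the WT library (blue circles) and the *Npc1*-/- library (red squares), in CPM on a log axis, with 95% Poisson intervals that cover counting error only. The WT point lies to the right of the *Npc1*-/- point for nearly all members, by the widest gap at the left of the scale for *Atf3*, and both points nearly coincide for *Btg1* and *Bag3*.

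Of the 5 AP-1 genes, 4 were more than 2-fold lower in insulin-led cells. *Fos*, whose protein pairs with JUN to form the transcription factor AP-1, stood at 190.4 in WT and 54.6 CPM in *Npc1*-/- insulin-led cells, a relative ratio of -1.92 (-1.98 to -1.86). Its relative *Fosb* stood at 47.8 and 11.9 CPM, a ratio of -2.13. *Jun* stood at 180.4 and 61.8 CPM and *Junb*, a JUN relative that also pairs with FOS, at 84.2 and 30.9 CPM, with ratios of -1.67 and -1.57. *Jund*, the JUN relative that resting cells also express, was the least changed of these, at 249.8 and 171.7 CPM with a ratio of -0.66 (-0.70 to -0.62). The interval of *Jund* did not overlap that of any of the others.

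The 250 bases before the start of *Fos* and of *Hspa1a* are shown with those of *Atf3* and *Hspa1b*, because *Fos* and *Hspa1a* are the best-known inducible members of their lists, *Atf3* had the most one-sided counts in insulin-led cells, and the sequence of *Hspa1b* shows how near a copy of *Hspa1a* it is. The sequences are from RefSeq on GRCm38.p6, the assembly of mm10, and read 5′ to 3′ on the gene's strand up to the base before the start. Capitals mark TGACG or its reverse complement, the core of a cAMP response element, in *Fos* and *Atf3*, and GAANNTTC or TTCNNGAA, a pair of facing or opposed heat shock element units, in *Hspa1a* and *Hspa1b*.
Fos (plus strand, chr12:85473640-85473889): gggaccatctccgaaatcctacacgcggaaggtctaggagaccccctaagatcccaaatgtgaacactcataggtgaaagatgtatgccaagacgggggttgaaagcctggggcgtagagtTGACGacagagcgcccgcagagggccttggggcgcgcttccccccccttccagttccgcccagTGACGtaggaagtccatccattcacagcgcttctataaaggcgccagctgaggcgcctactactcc
Atf3 (minus strand, chr1:191183334-191183583): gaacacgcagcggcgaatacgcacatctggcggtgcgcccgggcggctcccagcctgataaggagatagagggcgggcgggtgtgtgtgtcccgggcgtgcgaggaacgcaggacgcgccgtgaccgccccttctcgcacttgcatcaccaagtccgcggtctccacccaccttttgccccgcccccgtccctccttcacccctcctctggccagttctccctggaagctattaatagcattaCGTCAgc
Hspa1a (minus strand, chr17:34972157-34972406): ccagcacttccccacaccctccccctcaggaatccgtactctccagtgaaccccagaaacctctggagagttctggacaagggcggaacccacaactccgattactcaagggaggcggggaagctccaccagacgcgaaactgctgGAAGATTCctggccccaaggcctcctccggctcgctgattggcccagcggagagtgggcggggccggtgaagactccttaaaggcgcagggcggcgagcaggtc
Hspa1b (minus strand, chr17:34959239-34959488): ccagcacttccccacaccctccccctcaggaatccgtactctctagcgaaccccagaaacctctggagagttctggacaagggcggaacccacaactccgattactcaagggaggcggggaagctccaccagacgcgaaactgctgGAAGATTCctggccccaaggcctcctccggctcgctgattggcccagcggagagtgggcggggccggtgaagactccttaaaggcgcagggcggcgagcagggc

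The *Fos* sequence held the cAMP element core at 129 and 66 bases before the start, and the *Atf3* sequence at 7 bases before its RefSeq start. *Hspa1a* and *Hspa1b* held the heat shock units at 104 bases before the start, and their sequences differed at 3 of the 250 positions. The GENCODE M21 annotation of the same assembly places the *Fos* gene at chr12:85473890-85477273 with 4 exons, *Atf3* at chr1:191170296-191218039, *Hspa1a* at chr17:34969190-34972156 and *Hspa1b* at chr17:34956436-34959238. The RefSeq start was that of the GENCODE gene for *Fos*, *Hspa1a* and *Hspa1b*. For *Atf3* it lay 34706 bases inside the gene, whose outermost start belongs to another transcript, and 7 bases inside the start of the nearest of its 3 GENCODE transcripts. The core marked in *Atf3* thus begins at the start of that GENCODE transcript and lies inside it, not before it. Promoter sequences were at hand for 17 immediate early and 9 heat shock members. The cAMP element core occurred in 11 of the 17 and in 4 of the 9, against 19.8% of all genes in the RefSeq table. The pair of heat shock units occurred in 7 of the 9 heat shock members and in 1 of the 17 immediate early members, *Jun*, against 14.5% of all genes. The 7 are not independent sequences, since *Hspa1a* and *Hspa1b* are near copies and *Hspd1* and *Hspe1* are read outwards from overlapping starts. TGANTCA, the AP-1 motif, occurred in 0 of the 17 and in 1 of the 9, *Bag3*, against 7.82% of all genes, and the CArG box of serum response factor in 1 of the 17, *Zfp36*, against 1.62%. These are matches of letters on either strand of a short window, and sites outside its 250 bases were not searched, so a count of absence holds for the window only. Members that did not reach a 2-fold difference in insulin-led cells held them too, *Btg1* and *Nr4a1* the cAMP element core and *Hspd1* and *Hspe1* the heat shock units.

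Among the other transcription factors, *Egr1*, a zinc-finger factor induced by glucose in β cells, stood at 96.4 in WT and 50.8 CPM in *Npc1*-/- insulin-led cells, a ratio of -1.04. *Nr4a1*, an orphan nuclear receptor induced by calcium and cAMP, stood at 7.72 and 7.29 CPM, a ratio of -0.20 (-0.40 to -0.00). The *Nr4a1* ratio thus lay apart from those of *Fos* and *Egr1* in the same cells, although in glucagon-led cells it was -1.33 (-1.73 to -0.96) and in *Ppy*/*Pyy*-led cells -1.60 (-2.08 to -1.15). *Klf2*, a Krüppel-like factor best known from endothelium, stood at 7.99 and 5.61 CPM in insulin-led cells. With each cell thinned to 5000 UMIs, the 70 *Klf2* UMIs left in *Npc1*-/- insulin-led cells lay in 1.50% of the cells, with a variance 10.5 times the mean. The 8 endothelial markers summed to 44.1 in WT and 54.6 CPM in *Npc1*-/- insulin-led cells, with none at 0, against 15602 and 16985 CPM in endothelial-like cells, and their part in the *Klf2* level was not tested.

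*Atf3*, a stress-induced transcription factor of the ATF/CREB family, had the most one-sided counts of the list in insulin-led cells. It had 140 UMIs in WT insulin-led cells and 2 in *Npc1*-/- ones, 499 and 20 in glucagon-led cells, 115 and 5 in *Ppy*/*Pyy*-led cells and 18 and 1 in somatostatin-led cells. In the glucagon-led and *Ppy*/*Pyy*-led classes, where it passed the minimum through its WT level alone, it stood at 27.0 against 1.17 CPM and 14.1 against 0.534 CPM, ratios of -4.53 (-5.29 to -3.92) and -4.65 (-6.43 to -3.52). In endothelial-like cells it stood at 13.0 and 6.06 CPM, a ratio of -1.10 (-1.77 to -0.46), and in macrophage-like cells at 94.4 and 24.8 CPM, a ratio of -1.90 (-2.90 to -1.08). Both libraries were above 5 CPM in these last classes.

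The feedback genes were split. *Dusp1*, a phosphatase that switches off MAP kinases, whose annotated span overlaps 2 other genes on its own strand, stood at 41.3 in WT and 9.88 CPM in *Npc1*-/- insulin-led cells, a ratio of -2.18 (-2.32 to -2.05), the lowest of the immediate early members read there. *Ier2*, a short immediate early gene encoding a nuclear protein, stood at 53.8 and 15.5 CPM, a ratio of -1.91. *Btg2*, an antiproliferative gene that promotes mRNA deadenylation, stood at 190.2 and 100.7 CPM, a ratio of -1.04, and *Zfp36*, which encodes an RNA-binding protein that destabilises AU-rich mRNAs, at 11.1 and 5.08 CPM. *Btg1*, the near relative of *Btg2*, was not among them, at 95.3 and 100.7 CPM, with a ratio of -0.04 (-0.10 to 0.01) that turned to 0.08 without centring on the median gene. *Gem* and *Rasd1*, small GTPases of the Ras superfamily, and *Ppp1r15a*, a subunit that directs dephosphorylation of eIF2α, had ratios of -0.28, -0.46 and -0.66, and *Klf6* had -0.46.

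Within the heat shock list, an inducible Hsp70 gene and its partner Hsp40 differed most. *Hspa1a*, the strictly stress-inducible Hsp70, stood at 133.4 in WT and 29.3 CPM in *Npc1*-/- insulin-led cells, a ratio of -2.31 (-2.38 to -2.23), the lowest of all members read in this class. *Hspa1b*, its near copy, stood at 22.01 and 8.96 CPM, a ratio of -1.42. *Dnajb1*, the inducible Hsp40 that works with Hsp70, stood at 47.4 and 16.7 CPM, a ratio of -1.62, and *Hspb1*, a small heat shock protein that binds unfolding proteins, at 11.1 and 5.85 CPM, a ratio of -1.04. The *Hspb1* call was lost under 4 alternatives, with ratios of -0.70 with doublets removed, -0.88 under a stricter cell filter, -0.92 without centring and -0.97 as a mean over cells. *Hspa8*, the Hsp70 that cells make at all times, stood at 741 and 516 CPM, a ratio of -0.64. *Hsp90ab1*, the constitutive Hsp90, stood at 659 and 554 CPM, a ratio of -0.37, and the inducible *Hsp90aa1* at 301 and 276 CPM, a ratio of -0.24. The mitochondrial chaperonin pair *Hspd1* and *Hspe1* had ratios of -0.32 and -0.27, *Dnaja1*, a constitutive Hsp40, -0.45, and *Hsph1*, an Hsp110 that exchanges the nucleotide of Hsp70, -0.61. *Bag3*, a co-chaperone of Hsp70 in selective autophagy, stood at 4.76 and 5.04 CPM, a ratio of -0.04 (-0.29 to 0.21) whose sign also turned without centring. The coding sequences of *Hspa1a* and *Hspa1b*, 9951 bases apart on chromosome 17 and each of 1 exon, were 99.5% identical but the stretches after the stop codon, where 3′ reads fall, only 51.4%. How reads that match both were counted was not given in the sources used here, and values of the pair remain uncertain to that degree.

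In glucagon-led cells, 9 of 21 immediate early and 4 of 12 heat shock members were more than 2-fold lower, against 0.313% of genes, and none was higher, as 0.121% were. Intervals lay below the median gene for 20 of the 21 and 11 of the 12, against 11.2% of genes. The immediate early members were *Fos*, *Fosb*, *Ier2*, *Dusp1*, *Atf3*, *Zfp36*, *Nr4a1*, *Klf2* and *Gem*, and the heat shock members were those of insulin-led cells. *Atf3* and *Nr4a1* passed the minimum there through WT alone. *Fos* stood at 491 in WT and 222 CPM in *Npc1*-/-, a ratio of -1.17, *Jun* at 571 and 345 CPM, a ratio of -0.76, and *Dusp1* at 94.5 and 34.1 CPM, a ratio of -1.50. *Hspa1a* stood at 251 and 69.9 CPM, a ratio of -1.87, *Dnajb1* at 145.3 and 40.6 CPM, also -1.87, and *Hspb1* at 62.6 and 20.9 CPM, a ratio of -1.61. The intervals of *Fos* and *Jun* in glucagon-led cells lay closer to 0 than in insulin-led cells, whereas that of *Hspb1* lay further from it. The list sums were 3238 and 1872 CPM for immediate early and 4218 and 3261 CPM for heat shock genes.

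The *Ppy*/*Pyy*-led and somatostatin-led classes had fewer immediate early calls. Among *Ppy*/*Pyy*-led cells, 6 of 22 immediate early and 4 of 12 heat shock members were lower, against 0.692% of genes, and none was higher, as 0.251% were. Intervals lay below the median gene for 18 and 10 of them, against 9.86% of genes, and the median ratios were -0.79 and -0.37. In somatostatin-led cells, 4 of 20 and 2 of 12 were lower, against 1.41% of genes, and none was higher, as 1.62% were. Intervals there lay below the median gene for 10 and 11 of them, against 5.39% of genes, with median ratios of -0.40 and -0.54. The 4 were *Fos*, *Fosb*, *Nr4a1* and *Klf4*, the last read through its WT level alone, and the 2 were *Hspa1a* and *Dnajb1*. *Hspa1a* stood at 219 and 68.6 CPM in *Ppy*/*Pyy*-led and at 263 and 91.3 CPM in somatostatin-led cells, and *Dnajb1* at 110.8 and 35.6 CPM and at 133.7 and 38.2 CPM. *Dusp1*, more than 2-fold lower in the other hormone-led classes, had a somatostatin-led ratio of -0.19 (-0.69 to 0.30). *Junb*, lower past 2-fold only in the insulin-led one of those classes, had -0.14 (-0.39 to 0.10). Markers of other cells moved in both classes. In *Ppy*/*Pyy*-led cells the 7 β cell markers summed to 11549 in WT and 19127 CPM in *Npc1*-/- and the 8 stellate markers to 13.5 and 49.6 CPM, with none at 0. Nearly all of that β cell sum was *Iapp*, at 19646 and 31565 CPM without the hormone genes. On that scale *Nkx6-1* was at 158 and 195 CPM, *Pdx1* at 96.5 and 115, and *G6pc2* at 24.0 and 45.7. *Ucn3*, *Mafa* and *Slc2a2* hardly differed, at 9.54 and 10.7, 9.54 and 10.0, and 16.5 and 16.3 CPM. In somatostatin-led cells the 8 stellate markers summed to 27.3 and 111.4 CPM, with none at 0, and the 8 mesenchymal markers to 87.7 and 14.0 CPM, with 1 and 4 at 0. Their part in these ratios was not tested.

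**Figure D2:**
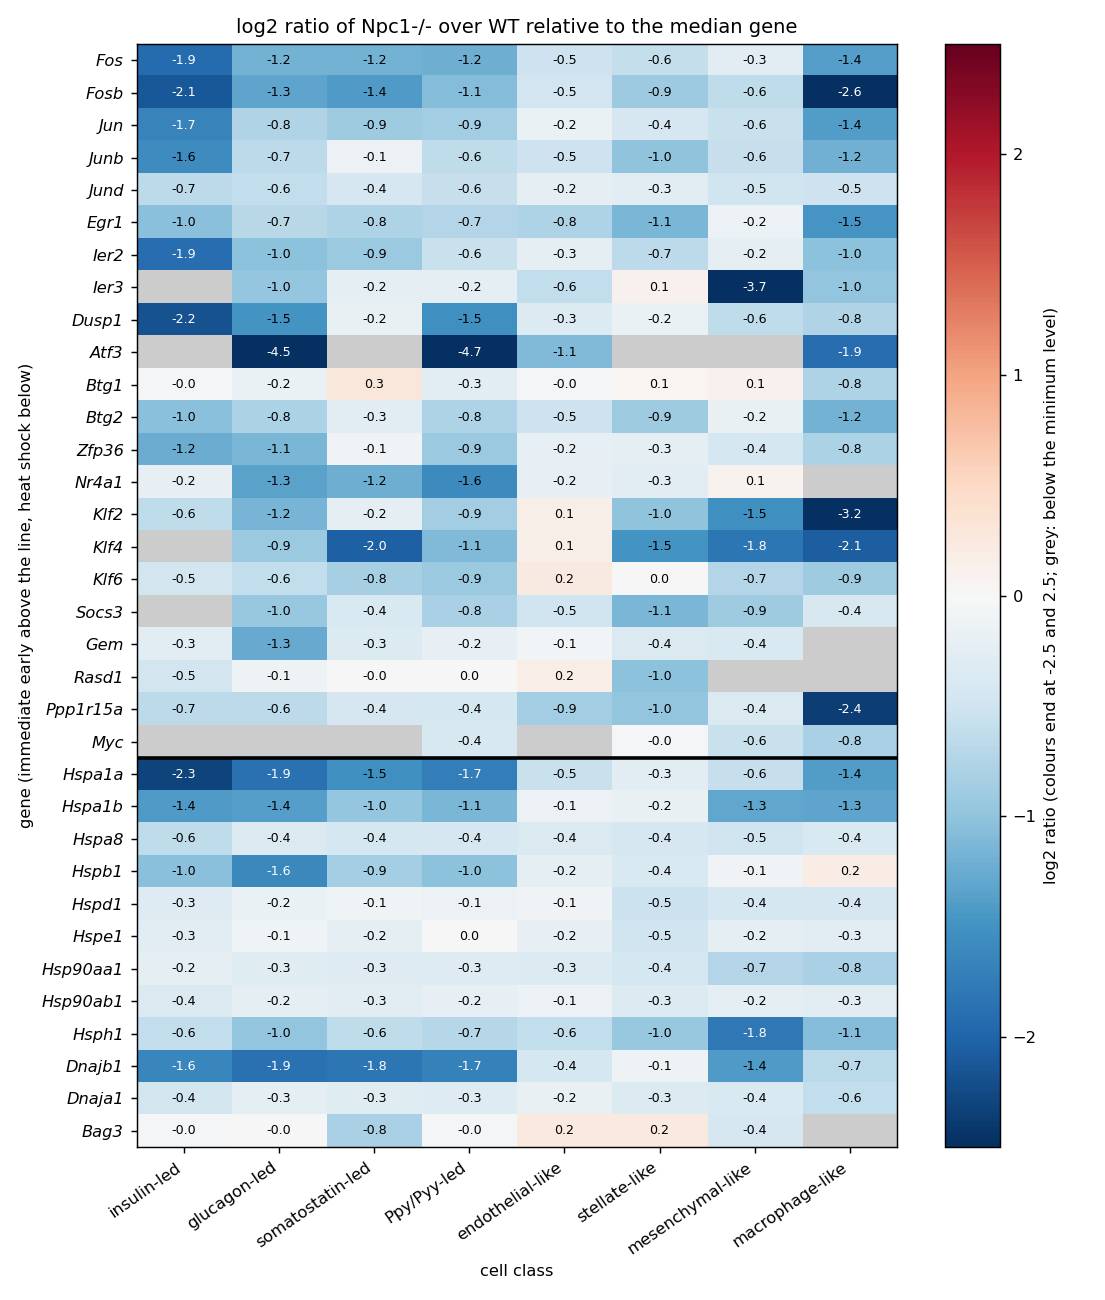
Relative log2 ratio of *Npc1*-/- over WT for the 34 members (rows) in the 8 classes (columns), printed in each cell and coloured blue for lower and red for higher, with grey for members below the minimum level. Blue fills most of the 4 hormone-led columns and the macrophage-like column, while the endothelial-like column is pale, with *Klf2*, *Klf4*, *Klf6*, *Rasd1* and *Bag3* slightly red.

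Endothelial-like cells had the median ratios closest to 0 for both lists. Only 1 of 21 immediate early members, *Atf3*, and 0 of 12 heat shock members were more than 2-fold lower, against 1.62% of genes, and none was more than 2-fold higher, as 0.599% were. The median ratios were -0.25 and -0.23. The interval still lay below the median gene for 15 of the 21 and 9 of the 12, against 8.87% of genes. *Fos* stood at 788 in WT and 553 CPM in *Npc1*-/-, a ratio of -0.52, *Hspa1a* at 686 and 472 CPM, a ratio of -0.55, and *Jun* at 1353 and 1210 CPM, a ratio of -0.17. *Klf2* and *Klf4*, flow-responsive factors of the vessel lining, went the other way, at 1307 and 1451 CPM and at 330.2 and 366 CPM, both with ratios of 0.14. *Klf6* at 158 and 185 CPM and *Bag3* at 73.6 and 87.4 CPM had ratios of 0.22 and 0.24. The intervals of all 4 lay above the median gene, so of 3 of the 21 immediate early and 1 of the 12 heat shock members, where 8.98% of all genes did. The upper quartile of the ratio over all genes of this class was 0.14, which *Klf2* and *Klf4* did not pass. Insulin, which these cells do not make, took 1.61% of the UMIs of WT and 0.887% of *Npc1*-/- endothelial-like cells, the 8 stellate markers summed to 428 and 699 CPM with none at 0, and the 8 macrophage markers to 25.8 and 2.39 CPM with 0 and 4 at 0. The part of RNA from other cells in these ratios was not tested.

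Stellate-like and mesenchymal-like cells lay between these patterns. In stellate-like cells, 5 of 21 immediate early members were lower, *Egr1*, *Klf2*, *Klf4*, *Socs3* and *Rasd1*, and 0 of 12 heat shock members, against 1.48% of genes, and none was higher, as 1.27% were. Intervals lay below the median gene for 13 and 9 of them, against 5.66% of genes. *Egr1* stood there at 247 in WT and 111.8 CPM in *Npc1*-/-, a ratio of -1.15 (-1.40 to -0.90), while *Hspa1a*, at 1209 and 993 CPM, had a ratio of only -0.29 (-0.38 to -0.19). In mesenchymal-like cells, 3 of 20 immediate early members, *Ier3*, *Klf2* and *Klf4*, and 3 of 12 heat shock members, *Hspa1b*, *Hsph1* and *Dnajb1*, were lower, against 3.56% of genes, and none was higher, as 2.64% were. Intervals lay below the median gene for 11 and 9 of them, against 6.12% of genes. *Ier3* had 60 UMIs in WT and 4 in *Npc1*-/- mesenchymal-like cells, a ratio of -3.75 with a wide interval of -5.83 to -2.48. *Fos* stood there at 931 and 758 CPM, a ratio of -0.26 (-0.43 to -0.09), the smallest change of *Fos* in any class.

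Macrophage-like cells had the largest difference in the immediate early sum among the 8 classes, 2.26-fold, on 50 WT and 33 *Npc1*-/- cells. Of 19 immediate early members 11 were lower, with a median ratio of -1.17, and of 11 heat shock members 3 were lower, *Hspa1a*, *Hspa1b* and *Hsph1*, with a median of -0.61, against 4.8% of genes, and none was higher, as 3.82% were. Intervals lay below the median gene for 17 and 6 of them, against 7.86% of genes. *Fos* stood at 651 in WT and 251 CPM in *Npc1*-/-, a ratio of -1.38, *Fosb* at 231 and 38.9 CPM, a ratio of -2.55, and *Jun* at 993 and 379 CPM, a ratio of -1.40. *Klf2* stood at 255 and 26.5 CPM, a ratio of -3.23 (-4.15 to -2.51), which rests on 151 and 15 UMIs. The insulin share was 1.93% in WT and 0.68% in *Npc1*-/- macrophage-like cells. The 8 endothelial markers summed there to 10.1 in WT and 233.6 CPM in *Npc1*-/-, with 3 and 0 at 0, and the 8 stellate markers to 11.8 and 187.6 CPM, with 4 and 1 at 0. The part of RNA from other cells was again not tested.

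Across the classes, *Fos*, *Fosb*, *Jun*, *Jund*, *Hspa1a*, *Hspa8*, *Hsp90aa1*, *Hsp90ab1* and *Dnaja1* had intervals below the median gene in all 8. *Hsp90ab1* moved least among them, with ratios between -0.37 and -0.14, and *Hspa8* most evenly among the rest, between -0.64 and -0.36. How many of all genes had intervals below in all 8 classes was not counted. Highly counted genes such as *Hsp90ab1* have narrow intervals that lie below at small ratios. *Hspa1a* ranged far more widely, from -2.31 in insulin-led to -0.29 in stellate-like cells, and *Fos* from -1.92 to -0.26. No member was more than 2-fold higher in any class.

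The 2 lists did not move by the same amount. The UMIs of immediate early genes per UMI of heat shock genes were 0.582 in WT and 0.402 in *Npc1*-/- insulin-led cells, a log2 ratio of -0.54 (-0.56 to -0.51). The same ratio was -0.42 (-0.44 to -0.39) in glucagon-led, -0.41 (-0.44 to -0.37) in *Ppy*/*Pyy*-led, -0.24 (-0.31 to -0.17) in somatostatin-led and -0.73 (-0.84 to -0.61) in macrophage-like cells. By summed UMIs, the immediate early list was thus the lower of both in *Npc1*-/- in these libraries. The intervals are too narrow for the spread between cells, since they take UMIs as independent. With cells thinned to 2500 UMIs, the variance of immediate early UMIs was 10.96 times the mean over 50 WT macrophage-like cells. It was 4.39 times the mean in WT insulin-led cells. As a mean over cells the macrophage-like ratio came to -0.86, outside its interval. The member medians of somatostatin-led cells had the other order, -0.40 for immediate early and -0.54 for heat shock genes. In stellate-like cells the ratio of summed UMIs was -0.16 (-0.22 to -0.10), in mesenchymal-like cells -0.01 (-0.11 to 0.08) and in endothelial-like cells 0.04 (0.01 to 0.07). In endothelial-like cells both lists were lower in *Npc1*-/- to nearly the same degree, 1.16-fold and 1.19-fold. The sum of the heat shock list is dominated by *Hspa8* and *Hsp90ab1*, so it speaks mainly for the constitutive chaperones. The ratios of *Hspa1a* and *Dnajb1* in hormone-led cells, between -2.31 and -1.54, lay below the median of the immediate early list in each of those classes. These 2 members were picked after their values were seen and do not speak for the inducible chaperones as a group. In insulin-led cells the inducible *Hsp90aa1* had -0.24, *Hsph1* -0.61 and *Bag3* -0.04, all above the immediate early median of -1.04.

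**Figure D3:**
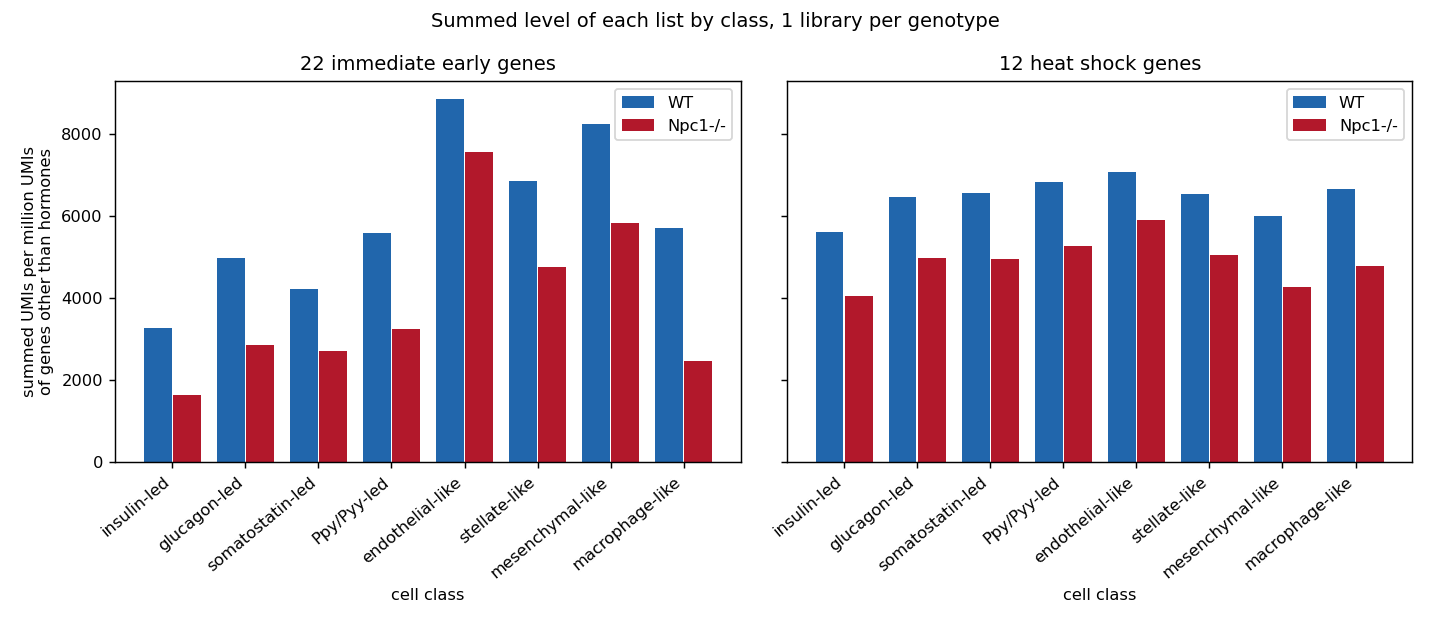
Summed level of the 22 immediate early genes (left) and the 12 heat shock genes (right) in each class of the WT (blue) and *Npc1*-/- (red) libraries, in CPM of genes other than hormones, with bars from 0. The *Npc1*-/- bar is the lower of each pair, the WT immediate early bar runs from 3263 in insulin-led to 8862 in endothelial-like cells, and the heat shock bars differ less between classes.

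The level of the lists between classes, read without the hormone genes, differed more for immediate early than for heat shock genes. In WT, the immediate early sum was 3263 CPM in insulin-led cells, 4974 in glucagon-led, 4231 in somatostatin-led, 5592 in *Ppy*/*Pyy*-led, 5705 in macrophage-like, 6871 in stellate-like, 8252 in mesenchymal-like and 8862 in endothelial-like cells. In *Npc1*-/- it was 1623 CPM in insulin-led and 7561 CPM in endothelial-like cells, again the lowest and the highest. Heat shock sums in WT lay between 5608 CPM in insulin-led and 7092 CPM in endothelial-like cells. Of the 22 immediate early members, 20 in WT and 21 in *Npc1*-/- were highest in a class without a hormone, and of the 12 heat shock members 8 and 9 were. The same count over all genes was not made, so these counts do not set the members apart from other genes. *Klf2* had the steepest order, 117-fold between endothelial-like and somatostatin-led cells in WT, and *Rasd1*, a gene induced by glucocorticoids, was the immediate early member that was highest in insulin-led cells in both libraries. *Hspb1* was 56.1-fold higher in endothelial-like than in macrophage-like WT cells, while *Hsp90ab1* spanned only 1.43-fold over the 8 classes.

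The difference between genotypes in insulin-led cells was spread over the cells for both lists, and a tail of high cells came on top of it for the immediate early list. Per cell, the immediate early sum was 418 CPM at percentile 10, 990 at the median and 3024 at percentile 90 in WT, and 320, 613 and 1274 CPM in *Npc1*-/-. The WT distribution lay to the right at each of these points and reached further, with percentile 99 at 7618 CPM against 2510 CPM. The heat shock sum had medians of 2250 and 1701 CPM and values at percentile 90 of 3436 and 2567 CPM, a shift of much the same size along the distribution. With each cell thinned to 5000 UMIs, the 181 of 1807 WT insulin-led cells highest in immediate early genes held 34.2% (33.3 to 34.98, exact binomial) of the UMIs of that list, against 28.8% (27.7 to 29.9) in *Npc1*-/-. For heat shock genes the shares were 19.0% and 19.1%. The intervals take the top cells as fixed, although the same UMIs picked them. These shares also depend on depth, and the immediate early ones were 36.05% in WT and 30.71% in *Npc1*-/- at 2500 UMIs. The part of the lower *Npc1*-/- counts in the difference was not tested. The thinning left out 26 WT and 22 *Npc1*-/- cells with fewer UMIs.

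**Figure D4:**
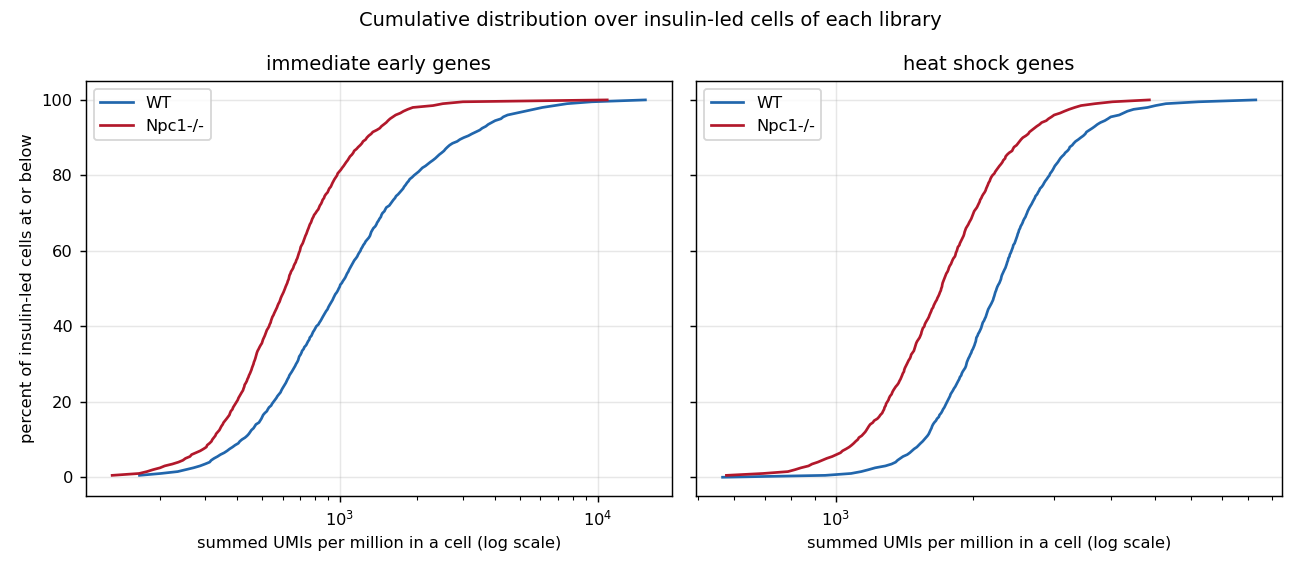
Percent of insulin-led cells (vertical axis) whose summed immediate early (left) or heat shock (right) CPM are at or below the value on the log horizontal axis, for the WT (blue) and *Npc1*-/- (red) libraries. The red curves lie to the left throughout most of the range, and the blue immediate early curve has the longer upper tail, with medians of 990 and 613 on the left and 2250 and 1701 on the right.

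*Hspa1a* was also unevenly shared between cells. At least 1000 CPM of it were found in 42 of 1833 WT insulin-led cells (2.29%, 1.66 to 3.08), which held 23.1% of its UMIs in that class, and in 0 of 1826 *Npc1*-/- ones (exact upper limit 0.202%), at median depths of 30417 and 30094 UMIs per cell. The highest *Npc1*-/- cell stood at 919 CPM. In glucagon-led cells 68 of 1048 WT and 1 of 857 *Npc1*-/- cells reached this level, in somatostatin-led cells 12 of 189 and 0 of 141, and in *Ppy*/*Pyy*-led cells 18 of 411 and 2 of 442. In stellate-like cells 124 of 234 and 116 of 253 did, and in endothelial-like cells 23.3% of 434 and 13.2% of 439. Endothelial-like cells had unequal median depths, 7778 UMIs in WT and 10281 in *Npc1*-/-. Those over the level were shallower than the rest, at 7427 against 7848 UMIs in WT and 7922.5 against 10626 in *Npc1*-/-. The part of depth in the endothelial-like difference was not tested. These shares do not compare classes, since the level was set on all UMIs. Hormone genes took 57.8% of the UMIs of WT insulin-led and 2.85% of those of WT stellate-like cells. Median depth in WT stellate-like cells was 6460.5 UMIs. The 42 WT insulin-led cells had a median of 4.26% mitochondrial UMIs against 4.31% in the rest, and 29019 UMIs against 30477.

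Those 42 cells were also high in the immediate early genes, as a description of cells picked by *Hspa1a*. *Fos* stood at 880 CPM in them against 176 CPM in the other WT insulin-led cells, *Dusp1* at 270 against 36.6 CPM, *Jun* at 680.3 against 170.0 CPM, and *Atf3* at 40.4 against 1.77 CPM, so that the 42 held 32.1% of the *Atf3* UMIs of the class. *Dnajb1* stood at 284 against 42.5 CPM. *Hspa8*, *Hspe1* and *Hspd1* differed little, at 879 against 738, 178 against 146 and 102 against 94.7 CPM, and *Ier3* and *Myc* were no higher, at 1.80 against 2.98 and 0 against 1.19 CPM. With cells thinned to equal total UMIs, 76 of the 181 WT insulin-led cells highest in immediate early genes were also among the 181 highest in heat shock genes (42%), against 57 of 181 (31.5%) in *Npc1*-/-. In glucagon-led cells 46 of 102 (45.1%) and 16 of 85 (18.8%) were shared. In somatostatin-led cells 12 of 19 (63.2%) and 3 of 14 (21.4%) were, in endothelial-like cells 15 of 43 (34.9%) and 5 of 44 (11.4%), and in stellate-like cells 8 of 24 (33.3%) and 5 of 25 (20%). The shares were closer in *Ppy*/*Pyy*-led cells, at 14 of 41 (34.1%) and 13 of 43 (30.2%). The smallest classes had 3 of 7 and 2 of 7 mesenchymal-like and 1 of 5 and 1 of 4 macrophage-like cells. Each set was the top 10% of its class, so sets unrelated to each other would share about 10%. That figure leaves out hormone share, since the total UMIs included hormone genes, 57.8% of them in WT insulin-led cells. A cell with less hormone RNA has room for more UMIs of both lists, and the part of this in the overlap was not tested. Thinning did not equalise the UMIs of the lists themselves, and ties were broken at random. Thinned insulin-led cells held a mean of 7.11 immediate early UMIs in WT and 3.59 in *Npc1*-/-. The part of these lower counts in the smaller *Npc1*-/- shares was not tested.

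Without the 10% of cells highest in members, an alternative chosen after the data were seen, the relative ratio in insulin-led cells was -1.67 for *Fos*, -1.91 for *Dusp1* and -2.12 for *Hspa1a*, and the immediate early to heat shock ratio came to -0.35 in place of -0.54.

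Other genes of these pathways, on lists set for this work, differed less in insulin-led cells where they could be read. Of 52 further stimulus-induced genes, 31 could be read in insulin-led cells, where 0 were more than 2-fold lower and 1 was higher, *Bhlhe40*, a repressor of the circadian clock, at 2.92 in WT and 6.78 CPM in *Npc1*-/-. Their median ratio was -0.08, with 13 intervals below and 10 above the median gene, where 29.2% of all genes lay below and 26.7% above. Of all 52, read or not, 30 had ratios below the median gene. *Rgs2*, a cAMP-induced brake on G protein signalling, was among the 10 above, at 24.3 and 46.5 CPM, a ratio of 0.82 (0.72 to 0.91), and *Dusp5*, a nuclear phosphatase of ERK, was another, with 0.52 (0.38 to 0.66). *Nr4a2*, the relative of *Nr4a1*, had -0.81 (-1.09 to -0.54). Some genes of this list fell below the minimum but had one-sided counts. *Arc* had 155 UMIs in WT and 43 in *Npc1*-/- insulin-led cells, *Npas4* 78 and 16, *Cyr61* 99 and 46 and *Egr2* 20 and 3. Their intervals lay below the median gene, as did that of *Id1*. Those of *Dusp4* (84 and 132 UMIs) and *Dusp6* (124 and 240) lay above it. Of 45 further chaperones and co-chaperones, 42 could be read, with no call past 2-fold, a median of -0.25, and 34 intervals below, against the same 29.2% of all genes, and 1 above, that of the mitochondrial Hsp70 gene *Hspa9*. Of 16 upstream regulators, 14 could be read, with a median of 0.08. The mRNA of *Hsf1*, which encodes the master regulator of the heat shock genes, had a ratio of -0.05 (-0.22 to 0.11), and that of *Srf*, which encodes the serum response factor, 0.23 (0.05 to 0.41). *Bhlhe40*, *Rgs2*, *Dusp5*, *Nr4a2*, *Arc*, *Npas4*, *Cyr61*, *Egr2*, *Id1*, *Dusp4*, *Dusp6*, *Hspa9*, *Hsf1* and *Srf* were named here after their values were seen. Outside insulin-led cells, more of the list of 52 was called lower. In glucagon-led cells 4 of 34 were lower, against 0.313% of genes, with none higher. In *Ppy*/*Pyy*-led cells 4 of 36 were lower, against 0.692%, with none higher. In macrophage-like cells 5 of 23 were lower, against 4.8% of genes, and 2 were higher, as 3.82% of genes were. In somatostatin-led cells 2 of 35 were lower, against 1.41% of genes, and 1 was higher, as 1.62% were. In mesenchymal-like cells 3 of 31 were lower, against 3.56%, and 1 was higher, as 2.64% were. Stellate-like cells had 3 of 38 lower, against 1.48%, and endothelial-like cells 1 of 45, close to the 1.62% of all genes, with none higher in either.

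Over the 16 sums of 8 classes and 2 libraries, the pattern of *Fos* was most like that of other members, with *Jun* first (Pearson's r = 0.972 on log2 CPM with 5 added), then *Fosb*, *Jund* and *Hspa1a*. Of the 9922 genes compared, the 5 most alike that are not members were *AC160336.1* (r = 0.919), *Hnrnpc*, *Sgta*, *Eif3d* and *Sae1*. For *Hspa1a* the first were *Fos* (r = 0.945) and *Hspa1b*, and outside the members *Sgta* (r = 0.929), *Sae1*, *Ing4*, *Ifi27* and *Eif3d*. The 16 sums share their library by 8, and hormone-led sums share the large insulin or glucagon fraction that lowers the CPM of every other gene, so these correlations are a description only.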

How the data were processed

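One WT and one *Npc1*-/- library of 3′ single-cell RNA, each from 3 pooled mice, were analysed (1 library per genotype). Per the labels and the study's methods, the authors made the deposited UMI counts per gene and barcode with Cell Ranger 3.1.0 on mm10, and filtered cells with Seurat 4.0.3. The labels and the methods name different versions of the kit. UMI counting removes copies made by amplification, and the handling of intronic and multimapping reads was not given in the sources used here.

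The 34 members and the further lists were chosen with earlier results of these data known. The matrices held 114324626 and 127122035 UMIs. Barcodes were kept by the study's thresholds as read here, its haemoglobin limit as a maximum of 0.1%. Hormone-led classes needed 10% of UMIs from the leading hormone. The other classes needed 3 markers detected and a lead of 0.5 in the mean log-normalized marker level. Neither doublets nor free RNA were removed in the values reported. Scrublet's own threshold marked 1.84% and 1.87% of kept barcodes, and the number expected from loading (6.86% and 6.12%) was removed as an alternative. Of the kept barcodes, 368 and 210 fell outside the 8 classes.

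UMIs were summed by class and library. Log2 ratios had 0.5 counts added and were centred on the median gene, with 95% conditional binomial intervals; levels had 95% Poisson intervals and shares exact binomial ones, all for counting error only. Ratios were computed for genes of the whole table with no model fitted, and scripts were tested on simulated data. No test between genotypes was made. Members were to be given with values if they had 100 CPM or more in the insulin-led class or passed 2-fold in the same direction in 3 or more classes. Others were to be given by range or count. The text departs from this rule. Some other members, such as *Junb*, *Ier3* and *Bag3*, were given with values too, and members under the rule were not given in every class. Genes of the further lists were to be named past 2-fold with 20 CPM in the insulin-led class, which none reached. Those named in the text were chosen after their values were seen. Alternatives were other scalings (no centring, totals without hormone genes, edgeR TMM factors), pseudocount, low filter, cell filter, hormone share, cell weighting, doublet removal and thinning depth. Python 3.11.15, numpy 2.4.6, scipy 1.17.1, scanpy 1.11.5, R 4.3.3 and edgeR 4.0.16 were used.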

Additional observations from a re-analysis of the deposited data

Results flagged for a closer look

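*Klf2*, *Klf4*, *Klf6* and *Bag3* were picked out because their intervals lay above the median gene in endothelial-like cells and below it elsewhere. In endothelial-like cells 8.98% of all genes had intervals above the median gene, and the upper quartile of the ratio over all genes was 0.14. *Klf2* and *Klf4*, Krüppel-like factors of the vessel lining, each had a relative log2 ratio of 0.14 in endothelial-like cells and an interval below the median gene in 6 other classes. *Klf6* had 0.22 there and an interval below in 6 other classes. *Bag3* had 0.24 there and an interval below in 1 other class, the somatostatin-led one. The difference between classes was not tested, since each genotype had 1 library.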

How the results depend on the processing

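All values rest on 1 library per genotype, and no interval covers the spread between mice. No paired analysis was possible because each genotype had 1 library and no comparison came from a test across samples. Over 11 alternatives, the number of members more than 2-fold lower in insulin-led cells ranged from 7 to 11 of the immediate early list and from 3 to 4 of the heat shock list. *Egr1* and *Btg2* were no longer past 2-fold without centring, at -0.93 and -0.92, nor without the 10% of cells highest in members, at -0.89 and -0.86, nor was *Btg2* at a minimum of 20 CPM, at -0.997. It ranged from 8 to 10 and 4 to 5 in glucagon-led cells and from 4 to 6 and 3 to 4 in *Ppy*/*Pyy*-led cells. The log2 immediate early to heat shock ratio moved as follows, with the cause not tested except where cell number gives it. As a mean over cells it was -0.5632 in insulin-led and -0.8634 in macrophage-like cells, and turned to -0.01026 in endothelial-like cells. With doublets removed it was -0.5604 in insulin-led cells. Under a stricter cell filter (2000 genes, 5% mitochondrial) it was -0.379 in glucagon-led and -0.3372 in *Ppy*/*Pyy*-led cells, and the macrophage-like medians were -0.7731 and -0.1838. With the leading hormone at 25%, it was -0.5572 in insulin-led, -0.4457 in glucagon-led and -0.3142 in *Ppy*/*Pyy*-led cells. That setting left 4 WT and 3 *Npc1*-/- somatostatin-led cells, with 0 immediate early and 0 heat shock members lower, medians of 1.138 and 0.07258, and a ratio turned to 0.6979. At a minimum of 20 CPM, 2 somatostatin-led and 0 endothelial-like immediate early members were lower, since fewer members could be read. Without the 10% of cells highest in members, chosen after seeing the data, the ratio was -0.3465 in insulin-led, -0.3545 in glucagon-led, -0.139 in somatostatin-led, 0.07318 in endothelial-like, -0.06877 in stellate-like and -0.4782 in macrophage-like cells. That trim left 1 immediate early and 1 heat shock member lower in somatostatin-led and 0 immediate early members in endothelial-like cells, and turned the insulin-led ratios of *Nr4a1* to 0.2796 and of *Gem* to 0.07098. Thinned to 2500 UMIs, the top 10% of insulin-led cells held 36.05% (WT) and 30.71% (*Npc1*-/-) of immediate early and 20.78% and 21.2% of heat shock UMIs. Depth limits the macrophage-like and mesenchymal-like classes most, where 1 UMI is 1.69 and 1.54 CPM in WT.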

Other observations

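Barcodes outside the comparisons gave the following levels. Schwann-like cells, glia that wrap the islet, were 32 in the WT library and 42 in the *Npc1*-/- one, where summed immediate early UMIs were 5304 CPM (5015 to 5605) and 3666 CPM (3449 to 3893), with *Fos* at 814 and 409 CPM and *Hspa1a* at 523 and 296 CPM. Heat shock sums in these cells were 4954 and 4023 CPM. The WT library held 141 B cell-like and 67 T cell-like cells and the *Npc1*-/- library 1 and 0, so genotypes could not be compared there. In WT, the immediate early sum was 4128 CPM in B cell-like and 3822 CPM in T cell-like cells.

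Insulin-led barcodes left out by the thresholds kept the order of the genotypes. With 1000 or fewer genes, 2207 WT and 1263 *Npc1*-/- barcodes had immediate early sums of 1628 CPM (1580 to 1677) and 803 CPM (753 to 855), and heat shock sums of 1773 and 1131 CPM. With 50000 or more UMIs, 153 and 344 barcodes had immediate early sums of 1213 and 701 CPM and heat shock sums of 2366 and 1771 CPM. With 10% or more mitochondrial UMIs, 83 and 61 barcodes had immediate early sums of 944 and 771 CPM and heat shock sums of 2030 and 1563 CPM. *Hspa1a* was at 71.1 and 37.2 CPM in this last set and at 152.6 and 48.1 CPM in the set with few genes.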
